A study of Mus musculus with 6 samples.

Results

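The genes described here are 9 components of the oxygen-sensing pathway built around hypoxia-inducible factor (HIF), taken by symbol from a fixed list out of 37620 Ensembl genes: the prolyl hydroxylases Egln1, Egln2 and Egln3, the asparaginyl hydroxylase Hif1an, the HIF subunits Hif1a, Epas1 and Arnt, the ubiquitin ligase component Vhl, and the HIF target Vegfa. All 9 were found, and 8 had enough reads to be tested; Epas1 did not pass the filter on low counts. They were measured by polyA-selected RNA sequencing in BFU-E (burst-forming unit erythroid), the progenitors at the start of the red cell lineage, enriched from livers of 129/SvImJ mouse embryos at embryonic day 14.5 by depletion of cells bearing lineage markers, Sca-1, CD16/32, CD41 or CD34 and by a sort for c-kit and the lowest 10% of CD71. The 3 groups, with 2 libraries each, were cells given 100 nM dexamethasone and 10 µM GW7647 (Dex plus GW7647), cells given 100 nM dexamethasone (Dex), and cells given neither (untreated). Dexamethasone activates the glucocorticoid receptor and GW7647 activates the nuclear receptor PPARα. The medium held stem cell factor, insulin-like growth factor 1 and erythropoietin. The labels state 12 h of treatment and the column headers of 1 deposited table carry 36 h. They do not settle whether untreated cells were cultured for the same time or taken fresh, so culture and drug cannot be told apart in any comparison with them. No group had GW7647 alone, and the oxygen level of the culture is not given in the sources used here. The labels do not say whether the 2 libraries of a group came from separate animals or cultures, so the p-values measure the spread between these libraries, which may be technical.

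HIF is a pair of an oxygen-regulated alpha subunit, encoded by Hif1a or Epas1, and a stable partner, encoded by Arnt. In the presence of oxygen the EGLN enzymes, which need iron and 2-oxoglutarate, hydroxylate prolines of the alpha subunit, VHL binds the hydroxylated form and directs it to the proteasome, and the HIF1AN enzyme hydroxylates an asparagine that otherwise lets the subunit recruit the coactivators p300 and CBP. When oxygen is short these steps slow, and HIF raises glycolytic genes, Vegfa and, as a feedback, some of its own hydroxylases. In red cell formation the pathway is best known for control of erythropoietin and of iron supply, and all of these steps on the alpha subunit act on protein, which RNA counts do not measure.

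The start-site windows of 4 members are shown because Egln3, Egln1 and Vegfa were called in every comparison with all libraries while Egln2 was called in none. Hif1an was called only against untreated, and its window, not printed, held 0 of the core matches described below. They are RefSeq windows on build GRCm38.p6, each 250 bases before to 50 bases after an annotated start on the minus strand, and RefSeq windows were held for 8 of the 9 members, Epas1 being the exception. They lie at chr12:54203825-54204124 for Egln3, chr8:124949205-124949504 for Egln1, chr17:46032328-46032627 for Vegfa and chr7:27166753-27167052 for Egln2. Capitals mark each match, on either strand, to the core letters of the HIF response element, ACGTG or GCGTG.
Egln3: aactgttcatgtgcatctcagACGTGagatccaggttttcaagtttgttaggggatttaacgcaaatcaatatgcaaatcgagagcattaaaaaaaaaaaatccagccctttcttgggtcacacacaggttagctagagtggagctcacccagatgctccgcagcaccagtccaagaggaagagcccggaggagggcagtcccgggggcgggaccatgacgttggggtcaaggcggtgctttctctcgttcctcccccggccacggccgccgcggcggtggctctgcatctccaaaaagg
Egln1: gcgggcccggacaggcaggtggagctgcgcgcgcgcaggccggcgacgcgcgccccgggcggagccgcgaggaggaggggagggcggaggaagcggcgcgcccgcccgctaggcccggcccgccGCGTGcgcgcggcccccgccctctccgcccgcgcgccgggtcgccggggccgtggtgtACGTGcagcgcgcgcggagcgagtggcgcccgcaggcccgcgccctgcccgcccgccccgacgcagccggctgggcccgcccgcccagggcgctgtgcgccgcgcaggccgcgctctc
Vegfa: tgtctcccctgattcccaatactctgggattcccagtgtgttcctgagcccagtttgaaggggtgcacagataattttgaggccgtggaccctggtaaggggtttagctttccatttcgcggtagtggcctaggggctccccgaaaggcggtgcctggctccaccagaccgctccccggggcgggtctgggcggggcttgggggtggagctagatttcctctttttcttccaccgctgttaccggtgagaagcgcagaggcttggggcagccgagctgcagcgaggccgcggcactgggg
Egln2: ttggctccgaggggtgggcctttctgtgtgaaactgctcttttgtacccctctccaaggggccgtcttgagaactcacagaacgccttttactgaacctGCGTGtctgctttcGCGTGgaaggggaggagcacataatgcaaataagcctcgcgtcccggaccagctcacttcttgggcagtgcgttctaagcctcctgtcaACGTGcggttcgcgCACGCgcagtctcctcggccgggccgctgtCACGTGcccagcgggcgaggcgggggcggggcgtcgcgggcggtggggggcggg
The Egln3 window held 1 core match, starting 229 bases before the start, the Egln1 window held 2 matches, and the Vegfa window held 0. The window of Egln2, a gene not called in any comparison, held 6 matches, 2 of them the opposite-strand readings of a CACGTG E-box, while a second Egln2 window, not printed, held 1 and a second Vegfa window, not printed, held 2. Vhl and Arnt, also not called in any comparison with all libraries, held 0 and 1 in windows not printed. The window of Hif1a, called only for both drugs against untreated, held 3. Of 32851 windows of this length, 43.77% held at least 1 core match and 1.66% held 5 or more. The single glucocorticoid receptor site AGAACA, found in 18.97% of windows, had 0 matches in the 4 printed windows. The full palindrome of that receptor, AGAACA and its reverse complement 3 bases apart, is in 0.01% of windows, and the PPAR direct repeat, AGGTCA given again after 1 base, in 0.04%, and both also had 0 matches, all read on both strands. A match is letters in a window and nothing more, and distal elements were not searched.

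Egln3, the prolyl hydroxylase with the lowest level in untreated cells, was the highest of the 3 with Dex, and was lower again with GW7647 added. It stood at 2188 and 2116 normalized counts in Dex plus GW7647 libraries, at 2761 and 2843 in Dex libraries and at 303.2 and 312.2 in untreated libraries. No library of any group overlapped another group. A normalized count is the read count divided by the library's scaled size and multiplied by the mean scaled size, so it compares libraries for 1 gene. Dex against untreated gave a 9.10-fold rise (log2 3.19 ± 0.06 SE, edgeR quasi-likelihood adjusted p = 8.74e-10), rank 70 among all 14125 tested genes ordered from the largest rise. With GW7647 added to Dex, Egln3 fell by 0.38 on the log2 scale (SE 0.05, adjusted p = 0.000977), to 2152 ± 50.5 normalized counts against 2802 ± 58.0 with Dex (SD, n = 2 each). Both drugs against untreated still gave a 6.99-fold rise (adjusted p = 2.17e-09). These 3 comparisons share libraries and are not independent of each other.

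Egln1, the main prolyl hydroxylase acting on HIF-1α in most tissues, rose with Dex and was higher still with GW7647 added, though that second call did not hold in every fit. Its normalized counts were 3134 and 3149 in Dex plus GW7647 libraries, 2817 and 2578 in Dex libraries and 1776 and 1869 in untreated libraries, again without overlap between groups. It rose 1.48-fold with Dex against untreated (log2 0.57 ± 0.06 SE, edgeR adjusted p = 2.21e-05) and 1.72-fold with both drugs (adjusted p = 2.48e-06). The further difference between Dex plus GW7647 and Dex was 1.16-fold (log2 0.22 ± 0.06 SE, adjusted p = 0.0356). That call was lost in 6 of 15 alternative fits, where its adjusted p reached 0.209: without replicate 1 (0.193) or 2 (0.209) of Dex plus GW7647, without Dex replicate 2 (0.074), with a replicate block (0.0762), with total count scaling (0.0503) and by the adjusted p of the authors' deposited table (0.0505).

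Egln2, the prolyl hydroxylase not induced by hypoxia in most cells studied, was not called in any comparison. Its values were 2170 and 2168 normalized counts in Dex plus GW7647 libraries, 2301 and 1965 in Dex libraries and 2120 and 2340 in untreated libraries, and the Dex and untreated libraries overlapped. The log2 difference of Dex against untreated was -0.06, with a 95% interval of -0.23 to 0.11, and that of Dex plus GW7647 against Dex was 0.02, with an interval of -0.15 to 0.19. Without Dex replicate 1 it was called lower in Dex than in untreated cells (log2 -0.18, edgeR adjusted p = 0.0462).

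**Figure D1:**
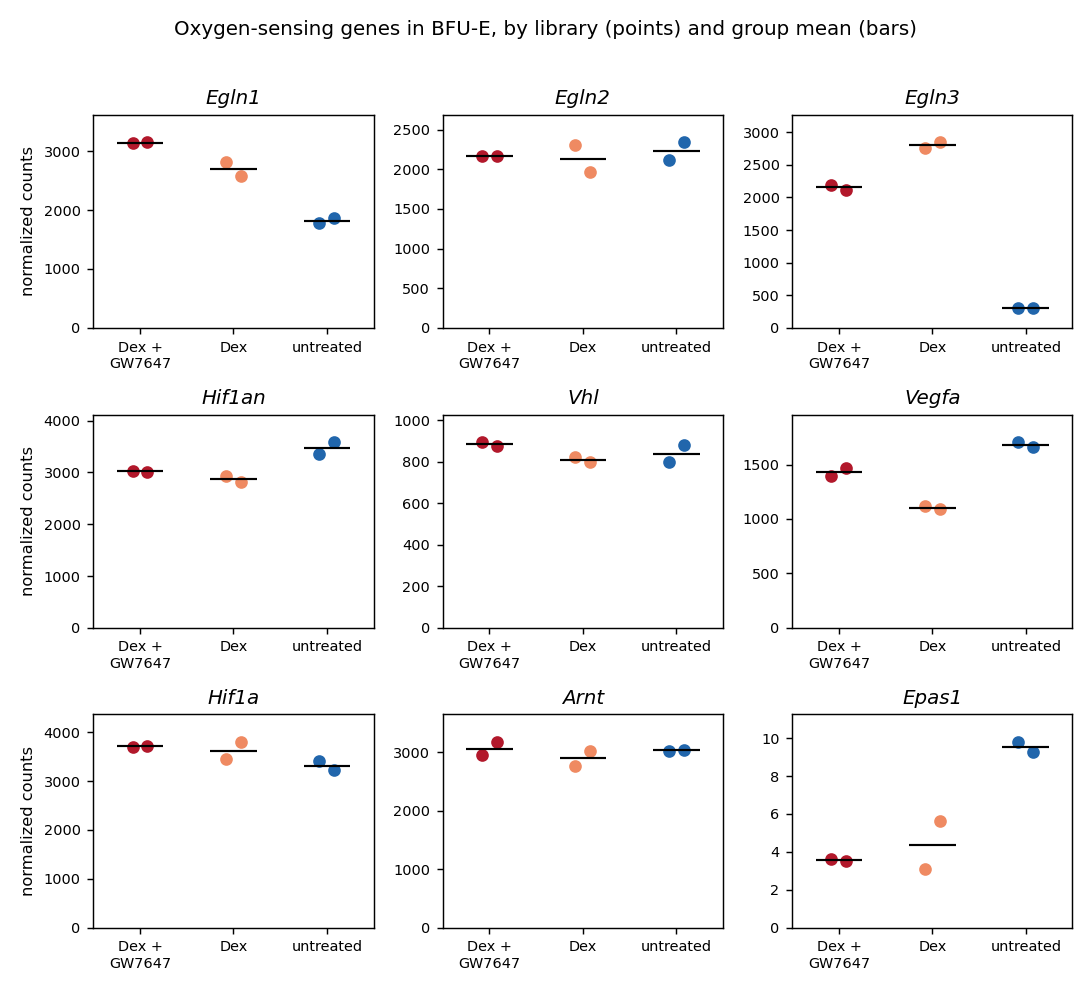
Normalized counts (y axis, from 0, a scale of its own in each panel) of the 9 genes in Dex plus GW7647, Dex and untreated libraries; points are the 2 libraries of a group and bars their mean. Egln3 lies at 2116 or more in all treated libraries and at 303.2 and 312.2 in untreated ones, Vegfa is lowest with Dex, and Epas1 stays below 10 throughout.

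Put on a common scale, normalized counts per kilobase of exon, the make-up of the prolyl hydroxylase transcripts differed between groups. The 3 genes together came to 2469 and 2446 per kilobase in Dex plus GW7647 libraries, 2643 and 2487 in Dex libraries and 1365 and 1473 in untreated libraries. Egln3 supplied 33.3% and 32.5% of that sum in Dex plus GW7647 libraries, 39.2% and 42.9% in Dex libraries and 8.34% and 7.96% in untreated libraries. Egln2 supplied 31.4% and 31.7% of it in Dex plus GW7647 libraries, 31.1% and 28.2% in Dex libraries and 55.5% and 56.7% in untreated libraries, while its own level stayed between 701.9 and 835.8 per kilobase in all 6. Egln1 supplied 35.3% and 35.8% with both drugs, 29.7% and 28.8% with Dex and 36.2% and 35.3% in untreated libraries. The shares were not tested, and exon lengths came from an annotation of a later build, so levels between genes are approximate.

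**Figure D2:**
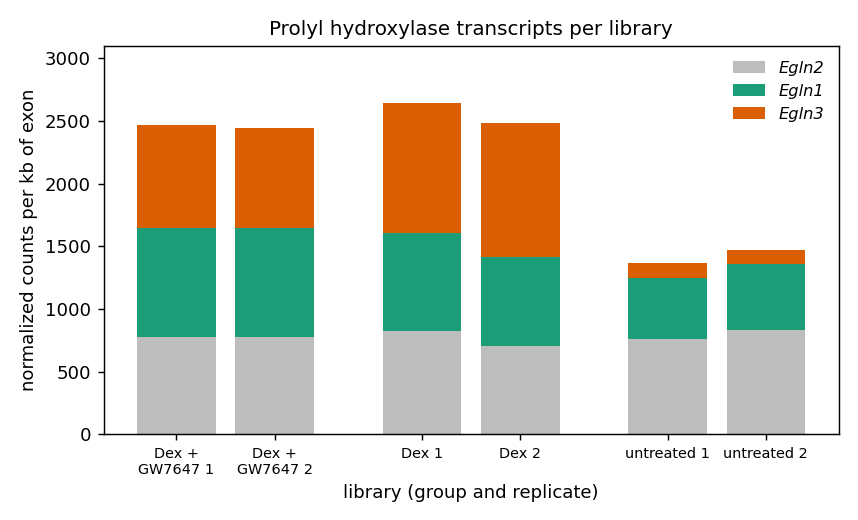
Stacked bars of prolyl hydroxylase levels (y axis, normalized counts per kilobase of exon, from 0) in each of the 6 libraries, grouped as Dex plus GW7647, Dex and untreated. The Egln3 segment makes up 32.5% to 42.9% of the bar in treated libraries and 7.96% to 8.34% in untreated ones, and the Egln2 segment stays between 701.9 and 835.8.

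The asparaginyl hydroxylase and the HIF subunits differed by less than Egln3 in the comparisons with untreated cells. Hif1an, whose product blocks coactivator binding to HIF, stood at 3033 and 3015 normalized counts in Dex plus GW7647 libraries, 2926 and 2811 in Dex libraries and 3357 and 3580 in untreated libraries. Both treated groups lay below untreated libraries without overlap. Hif1an fell by 0.27 on the log2 scale with Dex against untreated (SE 0.05, edgeR adjusted p = 0.00128) and by 0.20 with both drugs (adjusted p = 0.0089). The call for both drugs was lost in 4 alternative fits: with total count scaling (adjusted p = 0.221), without replicate 1 (0.0623) or 2 (0.0729) of Dex plus GW7647 and without untreated replicate 2 (0.0791). Dex plus GW7647 against Dex gave 0.08, with an interval of -0.04 to 0.19.

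Hif1a, the alpha subunit of HIF-1, stood at 3691 and 3726 normalized counts in Dex plus GW7647 libraries, 3456 and 3793 in Dex libraries and 3401 and 3223 in untreated libraries. The treated groups overlapped each other and lay above untreated libraries. With both drugs against untreated it was called higher, by 0.16 on the log2 scale (SE 0.06, edgeR adjusted p = 0.0371), a call lost in 7 of 15 alternative fits, among them those without replicate 1 (adjusted p = 0.126) or 2 (0.154) of Dex plus GW7647 and without untreated replicate 2 (0.192). With Dex against untreated it was not called (log2 0.13 ± 0.06 SE, adjusted p = 0.0824), but it was called without Dex replicate 1 (adjusted p = 0.014), with genes of any count (adjusted p = 0.0294) and with total count scaling (adjusted p = 0.0027). A gene annotated antisense to Hif1a, Gm15283, had 4 to 20 reads per library, and whether reads were counted by strand is not stated.

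Epas1, the alpha subunit of HIF-2, had 4 and 3 reads in Dex plus GW7647 libraries, 4 and 6 in Dex libraries and 8 and 8 in untreated libraries. Per kilobase, Epas1 made up 0.10% and 0.10% of the 2 alpha subunits in Dex plus GW7647 libraries, 0.09% and 0.16% in Dex libraries and 0.30% and 0.30% in untreated libraries, with Hif1a making up the rest. With genes of any count kept, the log2 difference of Dex against untreated was -1.12 ± 0.69 SE (edgeR adjusted p = 0.229). A difference in Epas1 was not detectable at this depth. Arnt, the shared beta subunit, stood at 2951 and 3171 normalized counts in Dex plus GW7647 libraries, 2772 and 3019 in Dex libraries and 3028 and 3042 in untreated libraries. Its Dex plus GW7647 libraries overlapped those of the other groups, and it was not called in any of the 3 comparisons, with 95% intervals of the log2 difference of -0.05 to 0.21 for Dex plus GW7647 against Dex and -0.20 to 0.06 for Dex against untreated.

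Vhl, the substrate receptor that binds hydroxylated HIF, had 892.7 and 874.0 normalized counts in Dex plus GW7647 libraries, 821.0 and 797.0 in Dex libraries and 797.1 and 878.8 in untreated libraries. The untreated libraries spanned most of the range of the treated ones. It was not called for Dex plus GW7647 against Dex (log2 0.13, interval -0.02 to 0.28) or for Dex against untreated (log2 -0.05, interval -0.21 to 0.10). With both drugs against untreated it was called only under total count scaling, of the fits run (log2 0.20, edgeR adjusted p = 0.0361, against 0.396 with trimmed mean scaling).

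Vegfa, the angiogenic growth factor taken here as the HIF target, was lower with Dex than in untreated cells and higher with GW7647 added to Dex. It stood at 1391 and 1470 normalized counts in Dex plus GW7647 libraries, 1119 and 1090 in Dex libraries and 1704 and 1658 in untreated libraries. The 3 groups did not overlap, Dex being lowest and untreated highest. Vegfa fell by 0.61 on the log2 scale with Dex against untreated (SE 0.06, edgeR adjusted p = 1.12e-05), a fall of 34.3%. With GW7647 added to Dex it rose 1.29-fold (log2 0.37 ± 0.06 SE, adjusted p = 0.00239), and it remained below untreated cells with both drugs (log2 -0.23 ± 0.06 SE, adjusted p = 0.00593). This last call was lost under total count scaling (adjusted p = 0.104) and without replicate 1 of Dex plus GW7647 (adjusted p = 0.0881).

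**Figure D3:**
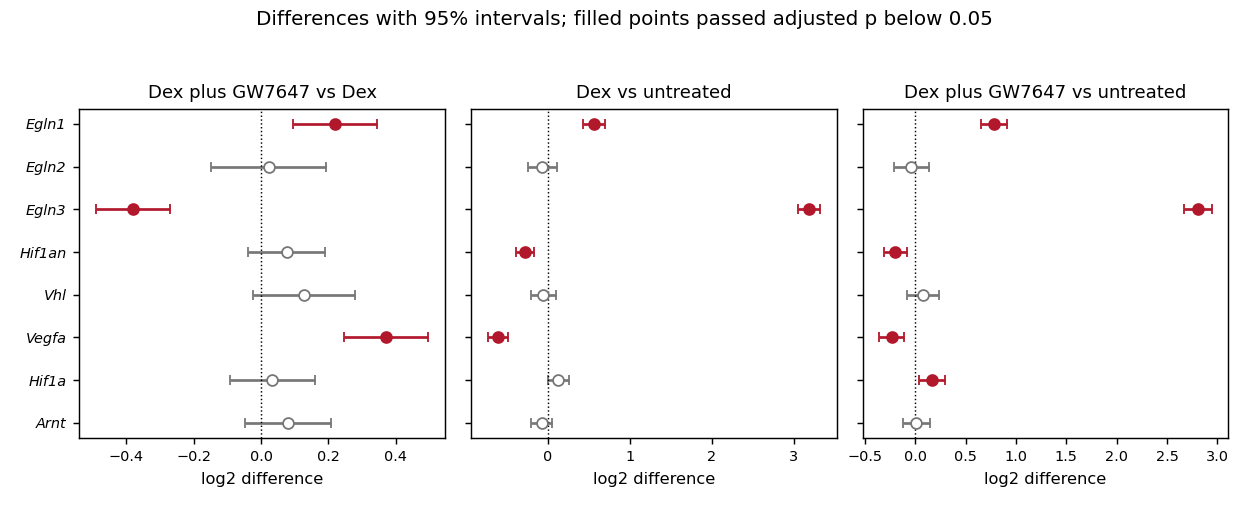
Log2 differences (x axis, a scale of its own in each panel) of the 8 tested genes for Dex plus GW7647 against Dex, Dex against untreated and Dex plus GW7647 against untreated; bars are 95% intervals and filled points passed the edgeR test. In the panel of Dex plus GW7647 against Dex, Egln3 lies at -0.38 with Vegfa at 0.37 and Egln1 at 0.22 on the other side of 0.

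Counted over the 8 tested members, Dex against untreated called 4, with Egln1 and Egln3 higher and Hif1an and Vegfa lower, where 51.6% of all 14125 genes were called, 25.5% higher and 26% lower. Dex plus GW7647 against Dex called 3, with Egln1 and Vegfa higher and Egln3 lower, where 9.73% of all genes were called, 2.15% higher and 7.58% lower. Dex plus GW7647 against untreated called 5, with Egln1, Egln3 and Hif1a higher and Hif1an and Vegfa lower, where 49.7% of all genes were called, 24.7% higher and 25.1% lower. Against untreated, 4 of 8 and 5 of 8 members stand beside background shares of about the same size. The members were chosen with earlier results of these data known, so none of these counts tests the set against its background share. Without replicate 1 or 2 of Dex plus GW7647, 548 and 618 genes were called for Dex plus GW7647 against Dex in place of 1374. For Dex plus GW7647 against untreated, 2 members were called without its replicate 1, and 3 without its replicate 2 or without untreated replicate 2. Total count scaling gave 5451 higher and 2584 lower for Dex against untreated, where trimmed mean scaling gave 3606 and 3677, and 5480 higher and 2719 lower for both drugs against untreated, where it gave 3486 and 3539. It shifted the median of all genes by 0.13 and 0.12 in these comparisons, and the signs of Egln2, Arnt and Vhl for Dex against untreated, none of them called, turned with it.

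On the per-kilobase scale the order of levels differed between groups. In Dex plus GW7647 cells Egln1 led (874 ± 2.92), then Egln3 (808.5 ± 19.0), Egln2 (774.7 ± 0.366), Hif1a (629 ± 4.25), Hif1an (457.8 ± 1.88), Arnt (382.3 ± 19.5), Vegfa (333.9 ± 13.1) and Vhl (294.7 ± 4.41; SD, n = 2 each). In Dex cells Egln3 led (1053 ± 21.8), followed by Egln2 (761.8 ± 84.8) and Egln1 (750.6 ± 47.0), whose libraries overlapped, then Hif1a (614.7 ± 40.4), Hif1an (434.2 ± 12.3), Arnt (361.6 ± 21.8), Vhl (269.9 ± 5.66) and Vegfa (257.8 ± 4.68). In untreated cells Egln2 led (796.5 ± 55.7), followed by Hif1a (561.7 ± 21.4), Hif1an (525.1 ± 23.9) and Egln1 (507.1 ± 18.2), the last pair overlapping, Vegfa (392.3 ± 7.6) stood above Arnt (379.1 ± 1.24) and Vhl (279.6 ± 19.3), and Egln3 (115.6 ± 2.40) was lowest but for Epas1 (1.70 ± 0.067).

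By the size and shape of their profile over the 6 libraries, the genes nearest to Egln3 among 11571 compared were Nrgn, Sh2d4a, Nt5e and Clca3a1. Their centred log2 levels differed from that of Egln3 by a root mean square of 0.073, 0.093, 0.103 and 0.124. All 4 were called higher for Dex against untreated by edgeR. They were picked by likeness to Egln3 over these same 6 libraries, so this call and the differences below largely follow from the choice. For Dex plus GW7647 against Dex, where Egln3 had a log2 difference of -0.38, the differences were -0.46 for Nrgn, -0.48 for Nt5e and -0.57 for Clca3a1, all called lower, and -0.26 for Sh2d4a, which was not called (edgeR adjusted p = 0.132). Nrgn, which encodes the calmodulin-binding protein neurogranin, had 9861 and 10080 normalized counts in Dex plus GW7647 libraries, 14530 and 12940 in Dex libraries and 1465 and 1510 in untreated libraries. Nt5e, the ectonucleotidase CD73, had 440.5 and 426.4 in Dex plus GW7647 libraries, 598.0 and 608.5 in Dex libraries and 64.79 and 76.32 in untreated libraries. The likeness is over 3 groups of 2 libraries, so it describes these libraries only. Epas1 also spanned more than 1 on the log2 scale, but no likeness is given for a gene at 3 to 8 reads.

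The lists that follow were chosen with earlier results of these data known, so their counts describe and do not test them against the background shares. Partners and cofactors of HIF went both ways with Dex. Of 9 listed, 8 were tested, with 3 higher and 3 lower for Dex against untreated, where 51.6% of all genes were called, and a median of 0.02 on the log2 scale against 0.01 over all genes. For Dex plus GW7647 against Dex, edgeR called 0 of the 8, with 0 at an unadjusted p below 0.05, and DESeq2 and limma also called 0. Hif3a, a further HIF alpha subunit with forms that restrain HIF, had 5246 and 5425 normalized counts in Dex plus GW7647 libraries, 5742 and 5606 in Dex libraries and 1734 and 1956 in untreated libraries. The treated libraries were all well above the untreated ones, a 3.07-fold rise with Dex (log2 1.62 ± 0.06 SE, edgeR adjusted p = 2.57e-08), while GW7647 added to Dex gave -0.09 (adjusted p = 0.389). Cited2, which competes with HIF for p300, rose 1.25-fold with Dex (adjusted p = 0.0011). The coactivator genes Crebbp and Ep300 fell by 0.48 and 0.27 on the log2 scale (edgeR adjusted p = 7.93e-05 and 0.0012).

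Of 12 genes of the VHL ligase and of HIF turnover, Dex against untreated called 1 higher and 4 lower, where 51.6% of all genes were called, with a median of -0.05 on the log2 scale. For Dex plus GW7647 against Dex, edgeR and limma called 0 of the 12, with 3 at an unadjusted p below 0.05, and DESeq2 called 1 lower. With total count scaling the Dex counts were 3 higher and 2 lower. Siah1a, a ubiquitin ligase of the family reported to target prolyl hydroxylases, had 957 ± 24.6 normalized counts with both drugs, 881.2 ± 30.7 with Dex and 2582 ± 108 in untreated cells (SD, n = 2 each), a fall of 1.55 on the log2 scale with Dex against untreated (edgeR adjusted p = 2.52e-08). Os9, whose product has been reported to bind HIF-1α and prolyl hydroxylases, rose 1.48-fold (adjusted p = 2.9e-05), and Ube2s and Usp33 fell by 0.31 and 0.18 on the log2 scale. Elongin B (Elob), a VHL partner, fell by 0.32 (adjusted p = 0.0132), a gene named after its values were seen, and elongin C (Eloc), Cul2 and Rbx1 were not called.

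Of 21 HIF targets in glucose use, all tested, 12 were higher and 2 lower for Dex against untreated (15 and 2 with total count scaling), where 25.5% of all genes were higher and 26% lower, with a median of 0.26 on the log2 scale against 0.01 over all genes. This list too was chosen with earlier results of these data known, so an excess over the background share was not tested. Aldoc, an aldolase, rose 3.29-fold to 868.5 ± 74.6 normalized counts with Dex, against 264.2 ± 12.3 in untreated cells, Pfkfb4, a maker and breaker of fructose 2,6-bisphosphate, rose 2.47-fold, and Hk1, a hexokinase, rose 1.95-fold. Against this direction, the glucose transporter Slc2a1 fell by 0.92 on the log2 scale (edgeR adjusted p = 6.86e-07). Dex plus GW7647 against Dex called 1 higher and 3 lower of the 21, where 2.15% of all genes were higher and 7.58% lower. In this comparison the transporter Slc2a3 was lower by 0.54 (edgeR adjusted p = 4.93e-05) and Aldoc lower by 0.42 (adjusted p = 0.00867). Without replicate 1 or without replicate 2 of Dex plus GW7647, 0 were called higher and 1 lower. Gapdh and other glycolytic genes have many near-identical pseudogene copies, so their counts are uncertain.

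Among other HIF targets, 27 were tested, and Dex against untreated called 12 higher and 7 lower, where 25.5% of all genes were higher and 26% lower (median 0.15), and 13 and 4 with total count scaling. Ddit4, an inhibitor of mTORC1 that is also a glucocorticoid target, rose 3.35-fold, P4ha1, a collagen prolyl hydroxylase, rose 1.88-fold, and Ero1l, an oxidase of disulfide formation, rose 1.71-fold, while the MYC antagonist Mxi1 fell by 0.86 on the log2 scale (edgeR adjusted p = 7.83e-07). Epo, the erythropoietin gene, had reads in 1 of the 6 libraries and was not tested.

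Of 5 iron and heme targets tested, 0 were higher and 4 lower with Dex against untreated, where 26% of all genes were lower (median -0.63), also with total count scaling. Hmox1, heme oxygenase, fell by 2.08 on the log2 scale, Tfrc, the transferrin receptor, by 0.66, Slc40a1, the iron exporter ferroportin, by 0.63 and Slc11a2, an iron importer, by 0.34 (edgeR adjusted p from 4.24e-09 to 0.000866). With GW7647 added to Dex, Slc40a1 rose 1.23-fold (adjusted p = 0.0206), a call lost without either replicate of Dex plus GW7647 and without Dex replicate 1.

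Other VEGF genes were lower with Dex or not called. Of 9 other VEGF ligands and receptors, 5 were tested, and Dex against untreated called 0 higher and 3 lower, where 26% of all genes were lower: the receptors Kdr (log2 -1.06 ± 0.17 SE) and Nrp1 (-2.55 ± 0.40) and the ligand Vegfd (-1.84 ± 0.31), with edgeR adjusted p of 0.000433, 0.000468 and 0.00066. Kdr had 53.03 ± 3.51 normalized counts with both drugs, 68.84 ± 10.1 with Dex and 143 ± 12 in untreated cells. Dex plus GW7647 against Dex called 0 of the 5 by edgeR, as did DESeq2 and limma, and Nrp1 alone had an unadjusted p below 0.05 (edgeR adjusted p = 0.0796). Nrp1 had 0 and 1.18 normalized counts in Dex plus GW7647 libraries, 5.40 and 4.69 in Dex libraries and 28.1 and 32.4 in untreated libraries. It passed the filter on low counts through the untreated libraries alone, so its lower call was favoured by that filter and supports nothing, which leaves Kdr and Vegfd. Enzymes that make or use 2-oxoglutarate, succinate and fumarate, the substrate and inhibitors of the hydroxylases, gave 3 higher and 1 lower of 14 with Dex against untreated (5 and 0 with total count scaling), a smaller share than the 51.6% of all genes called, among them Idh3a (1.24-fold, edgeR adjusted p = 0.000277). For GW7647 added to Dex, edgeR, DESeq2 and limma called 0 of the 14, with 3 at an unadjusted p below 0.05 in edgeR.

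**Figure D4:**
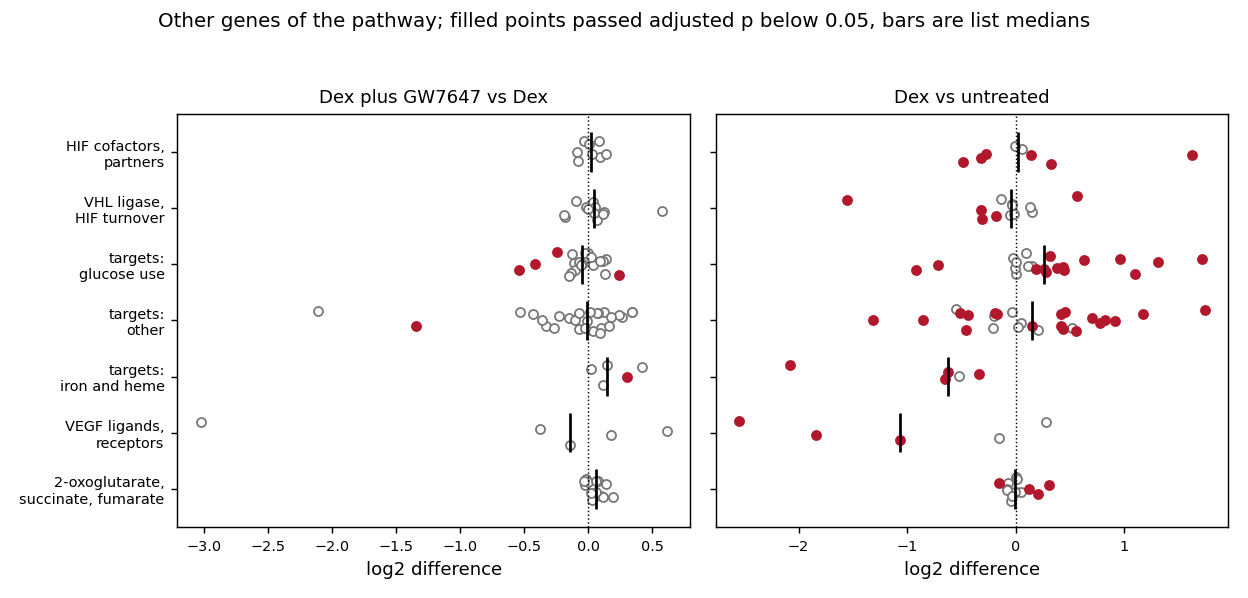
Log2 differences (x axis) of the tested genes in 7 lists of the pathway for Dex plus GW7647 against Dex and Dex against untreated; each point is a gene, filled points passed the edgeR test and bars are list medians. With Dex the glucose-use targets lie mostly right of 0 (median 0.26) and the iron and heme targets left of it (median -0.63), and few points are filled for GW7647 added to Dex.

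The libraries held 35970286 to 54174801 counts each. Summed erythroid markers (8 genes) were 186400 to 188500 normalized counts in Dex plus GW7647 libraries, 178700 to 178800 in Dex libraries and 340200 to 346500 in untreated libraries, and no marker of any list was at 0 in all 6. Gata1, a defining erythroid factor, stood at 10360 ± 17.9 normalized counts with both drugs, 10440 ± 309 with Dex and 11930 ± 632 in untreated cells (SD, n = 2 each). For Dex against untreated, 5 of the 8 erythroid markers were called lower and 1, Kit, higher. Kit, which encodes the c-kit of the sort, stood at 12840 with both drugs, 12660 with Dex and 4291 in untreated cells (group means). Marker genes of other cell types differed between the groups too. The counts of lower markers that follow stand beside shares over all genes. These were 7.58% lower for Dex plus GW7647 against Dex and 26% lower for Dex against untreated. Megakaryocyte markers (6 genes) were 10300 to 10580 in Dex plus GW7647 libraries, 14840 to 16570 in Dex libraries and 33680 to 35690 in untreated libraries, with 5 of 6 lower for Dex plus GW7647 against Dex and 5 of 6 lower for Dex against untreated. Granulocyte markers (7 genes) were 3418 to 3499 in Dex plus GW7647 libraries, 5339 to 5740 in Dex libraries and 12080 to 13270 in untreated libraries, with 6 and 5 lower. Monocyte and macrophage markers (7 genes, 6 tested) were 539.7 to 549.7 in Dex plus GW7647 libraries, 800.9 to 831.7 in Dex libraries and 1954 to 1960 in untreated libraries, with 3 and 4 lower. Cd68 was called higher for Dex against untreated (means of 126.5 with both drugs, 133.6 with Dex and 94.48 untreated). Adgre1 (10.94, 8.16 and 45.48 in that order) and Cx3cr1 (6.424, 9.152 and 85.37) would not have passed the low-count filter without the untreated libraries. Lower calls of these genes against untreated were favoured by that filter and support nothing. Mast cell and basophil markers (6 genes, 5 tested) were 5613 to 5712 in Dex plus GW7647 libraries, 9615 to 9930 in Dex libraries and 6033 to 6043 in untreated libraries. Of these 5, all were lower for Dex plus GW7647 against Dex, and for Dex against untreated 4 were lower while Hdc, histidine decarboxylase, rose 4.96-fold and stood at 5075 and 4984 in Dex plus GW7647 libraries, 8879 and 8487 in Dex libraries and 1749 and 1748 in untreated libraries. Lymphoid markers (5 genes) summed to 148.9 to 174.8 in Dex plus GW7647 libraries, 229.2 to 297.2 in Dex libraries and 412.8 to 441.3 in untreated libraries. Hepatoblast markers (5 genes) summed to 191.3 to 196.1 in Dex plus GW7647 libraries, 270.0 to 276.2 in Dex libraries and 47.41 to 61.13 in untreated libraries. Endothelial and stromal markers (6 genes, Kdr among them) summed to 191.3 in both Dex plus GW7647 libraries, 290.9 to 330.0 in Dex libraries and 738.4 to 753.9 in untreated libraries. Whether reads of these markers came from other cell types or from the BFU-E themselves was not tested. The part of any such cells in the values of Egln3, Vegfa and the other members was not tested either. In bulk samples fewer cells of a type and less RNA per cell cannot be told apart.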

How the data were processed

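Both deposited tables hold raw read counts per Ensembl gene with the authors' ratio and adjusted p-value columns; per the submitters' processing notes the tools were TopHat 1.4.1, HTSeq and DESeq, with builds mm9 and NCBIM37. The strand setting of counting is not given in the sources used here. The counts deposited for Dex plus GW7647 were identical in both tables and were used once. The authors' deposited ratio and p-value served only as an alternative. Symbols were joined by Ensembl ID from GENCODE M21 for 32897 of 37620 genes (87.45%), and exon lengths came from the same annotation, on build GRCm38, not the files' build.

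From the counts, edgeR 4.0.16 in R 4.3.3 (filterByExpr with a minimum count of 10, trimmed mean scaling, quasi-likelihood test, Benjamini-Hochberg adjustment over 14125 genes, threshold 0.05) was fitted to all 6 libraries by group, 2 per group. The code was also run on simulated counts, with a small set of genes changed in Dex alone and the spread taken from these libraries. That run did not cover differences as small as most member calls, nor changes in as many genes as were called against untreated. Intervals are 95%. Libraries held 35970286 to 54174801 counts. Alternatives used limma 3.58.1, DESeq2 1.42.0, other scalings and filters, a replicate block and each library left out. The members and lists were chosen with earlier results of these data known. From each list, up to 4 called genes with the smallest p for Dex against untreated and up to 2 for Dex plus GW7647 against Dex were named. The values of 1 gene that this rule picks are not reported here. Likeness to a member spanning over 1 on the log2 scale was the root mean square difference of gene-centred log2 CPM over 6 libraries, among genes averaging 50 or more normalized counts.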

Additional observations from a re-analysis of the deposited data

How the results depend on the processing

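The direction and call of Egln3 in all 3 comparisons, of Vegfa and Egln1 for Dex against untreated, of Vegfa for Dex plus GW7647 against Dex, of Egln1 for both drugs against untreated and of Hif1an for Dex against untreated held in every alternative run. Of the members' log2 differences under alternatives, 313 kept direction and call, 19 lost a call, 5 gained one and 15 turned sign, none of these 15 called. For Dex plus GW7647 against Dex, 2085 genes were called with genes of any count, and 548 to 1729 with a library left out, against 1374. Members called for both drugs against untreated ranged over 2 to 5 with a library left out. Arnt for both drugs against untreated turned to -0.00334 (relative log expression), -0.00945 (mean of at least 50 counts), -0.0032 (DESeq2) and -7.22e-05 (4 libraries), and ranged from -0.038 to 0.0649 with a library left out. Total count scaling turned Egln2 (0.0676), Arnt (0.0608) and Vhl (0.0791) for Dex against untreated and Egln2 (0.0791) for both drugs against untreated. With a library left out, Dex plus GW7647 against Dex ranged from -0.0324 to 0.111 for Hif1a and -0.0754 to 0.143 for Egln2, Dex against untreated from -0.181 to 0.0304 for Egln2 and -0.118 to 0.0219 for Vhl, and both drugs against untreated from -0.108 to 0.0337 for Egln2. The cause was not tested. Same-numbered libraries did not deviate together (r = 0.147 for Dex plus GW7647 with Dex, -0.047 for Dex plus GW7647 with untreated, -0.213 for Dex with untreated), so the numbers were not taken as pairs. A replicate block gave 998, 6824 and 6523 genes and 2, 4 and 4 members for Dex plus GW7647 against Dex, Dex against untreated and both drugs against untreated. A crossed replicate block for Dex against untreated, chosen after seeing the data, gave 8044 genes and 5 members. Depth limits Epas1, with 3 to 8 reads per library.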
